A study of Mus musculus with 24 samples.

Results

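Of the 20868 genes with a 3′ untranslated region (UTR) in the deposited tables, 9 are described that were read in one genotype of the Meis1/Hoxa9 preleukemic cells and almost not at all in the other. They are a selection of such genes, whose number over the whole table depends on the limits and is given further on. Susd5, F2r, Hlf and Gria2 were read in cDKO cells. Zfp979, F13a1, D630023F18Rik, Pakap and Pmp22 were read in control cells. The 9 genes were selected on their measured reads in these same libraries, so their differences between genotypes are given as a description, without a test.

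The cells were mouse preleukemic cells, made by transducing c-Kit+ fetal liver cells with retroviruses encoding Meis1 and Hoxa9, a pair of transcription factors that together keep blood progenitors dividing in culture. Both genotypes came from mice with floxed alleles (Tut4fl/fl; Tut7fl/fl). The cDKO cells also carried Vav-iCre, a recombinase driven in blood cells by the Vav promoter, and the control cells came from littermates without it. All cells, control and cDKO alike, received both retroviruses, 4-thiouridine (4SU) at 2.9 µM for 12 h and then a chase without it of 0, 60, 180 or 540 min. Each of the 8 groups held 3 libraries. The methods speak of replicates from independent animals or embryos, but the labels do not say what a replicate number stands for, so p-values below measure the spread between these libraries.

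TUT4 and TUT7 are terminal uridylyl transferases, enzymes that add uridines to RNA 3′ ends and so mark many RNAs for decay. SLAM-seq uses a uridine analog, 4SU, which cells build into new RNA and which, once alkylated, makes the sequencer report C at a T position. The T-to-C rate, conversions per covered T position, therefore tracks how much of a transcript was made during the label, and its fall in the chase follows decay. The 9 genes serve unlike purposes: a thrombin receptor, a leukemia-linked transcription factor, a synaptic channel subunit, a clotting enzyme, a myelin protein, and others whose function is little known.

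Library depth and labelling set limits on all values below. The libraries held 4380238 to 7041311 reads in the UTR intervals, with a median of 5321078, and CPM below is scaled to these reads in each library. As a check of the labels, Tut4 lay between 68.1 and 105 CPM in the control libraries and between 17.8 and 40.0 CPM in the cDKO libraries. Tut7 lay between 34.6 and 66.1 CPM in control and between 16.7 and 33.3 CPM in cDKO. The groups did not overlap for either gene. Whether the UTRs lie in the deleted part of either gene is not given in the sources used here, and if they lie outside it these reads do not check the deletion. The library-wide T-to-C rate at 0 min was 1.62 to 1.67% in control but 0.542, 0.821 and 0.845% in cDKO, with replicate 3 the lowest at all 4 times.

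The 3 cDKO replicate numbers also stood apart from each other in sex-linked genes. Xist, the RNA that silences one X chromosome in females, averaged 1978 CPM over the 4 times in cDKO replicate 1, 56.7 in replicate 2 and 2068 in replicate 3. In control replicates 1, 2 and 3 Xist averaged 199, 477 and 373 CPM. Ddx3y, on the Y chromosome, averaged 16.3, 133 and 4.16 CPM in cDKO replicates 1, 2 and 3, and at most 0.0513 CPM in any control replicate number. Reads of Ddx3y thus differed between the genotypes as well as between cDKO replicates. The comparisons of genotypes below did not separate sex from genotype, and the part of sex in them was not tested. Its part in the spread between cDKO replicates described below was not tested either.

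The promoters of the 4 genes read in cDKO are shown because F2r, Hlf and Gria2 varied together between libraries, whereas Susd5 did not. The sequences are RefSeq's for GRCm38.p6, the build of the deposited coordinates, and give the 250 bases before the annotated start, 5′ to 3′ on the strand of the gene. Capitals mark matches to any of 6 motifs, each searched on both strands. The core promoter motifs were the TATA box, spelled TATAAA and held by 12.4% of all 32851 promoter windows, and the GC box, spelled GGGCGG and held by 32.7%. The CCAAT box was held by 33.8%, and the E-box bound by MYC-type factors, spelled CACGTG, by 6.02%. Of letters that blood transcription factors recognise, a core of MEIS sites, spelled TGACAG, was held by 15.9% and a core of GATA sites, spelled GATAA, by 22.6%.
Susd5, chr9:114057104-114057353, plus strand: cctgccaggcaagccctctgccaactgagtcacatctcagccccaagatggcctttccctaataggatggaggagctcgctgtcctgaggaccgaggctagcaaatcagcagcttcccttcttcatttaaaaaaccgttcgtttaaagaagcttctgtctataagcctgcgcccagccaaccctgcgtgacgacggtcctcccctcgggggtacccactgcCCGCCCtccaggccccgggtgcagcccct
F2r, chr13:95618467-95618716, minus strand: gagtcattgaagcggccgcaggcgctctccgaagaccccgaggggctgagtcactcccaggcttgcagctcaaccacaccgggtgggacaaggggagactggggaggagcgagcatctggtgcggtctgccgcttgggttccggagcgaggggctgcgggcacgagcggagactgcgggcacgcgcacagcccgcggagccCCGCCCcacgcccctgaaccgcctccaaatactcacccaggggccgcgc
Hlf, chr11:90390918-90391167, minus strand: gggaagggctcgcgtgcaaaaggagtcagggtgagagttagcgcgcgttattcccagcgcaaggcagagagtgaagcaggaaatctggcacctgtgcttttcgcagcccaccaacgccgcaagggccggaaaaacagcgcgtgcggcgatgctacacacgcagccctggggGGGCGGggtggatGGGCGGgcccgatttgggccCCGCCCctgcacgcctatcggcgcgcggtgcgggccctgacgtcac
Gria2, chr3:80802836-80803085, minus strand: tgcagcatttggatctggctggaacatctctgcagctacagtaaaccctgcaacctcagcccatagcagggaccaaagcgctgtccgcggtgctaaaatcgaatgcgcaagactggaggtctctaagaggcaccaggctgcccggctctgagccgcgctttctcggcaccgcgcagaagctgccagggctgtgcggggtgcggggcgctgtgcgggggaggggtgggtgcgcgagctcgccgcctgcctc

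The GC box, the letters bound by SP1-type factors, was the only motif of the 6 to match in these windows. It was found 3 times in Hlf, 1 time each in F2r and Susd5, and in no position in Gria2. Neither the MEIS core nor the GATA core matched in the 4 windows. The Hlf, F2r and Gria2 windows were rich in CpG pairs, with 26, 24 and 19 against a median of 6, and Susd5 held 11. All 9 genes matched the promoter table, with 17 windows in total because Pakap, Pmp22 and F13a1 have several starts.

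F2r encodes protease-activated receptor 1, the G protein-coupled receptor that thrombin cleaves. Its UTR interval lies at chr13:95601789-95603732 (minus strand, mm10). In cDKO replicates 1, 2 and 3 it stood at 113, 17.5 and 247 CPM at 0 min and at 110, 36.4 and 246 CPM at 60 min. It stood at 111, 32.7 and 265 CPM at 180 min and at 102, 32.2 and 258 CPM at 540 min. Replicate 3 was the highest and replicate 2 the lowest at each time. In control, 11 of the 12 libraries had 0 reads and 1 had 2 reads. Over the whole chase that made 8017 reads against 2, a CPM ratio of 4406 (exact 95% interval 1219 to 36387, counting error only).

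Hlf, hepatic leukemia factor, is a bZIP transcription factor of blood stem cells, known from a gene fusion in lymphoblastic leukemia. Its interval is chr11:90336535-90340758 (minus strand). The cDKO libraries held 105, 27.2 and 242 CPM at 0 min and 77.9, 26.6 and 256 CPM at 60 min, in the order of their replicate numbers. At 180 min the values were 96.6, 32.7 and 282 CPM, and at 540 min 88.1, 31.0 and 222 CPM. The order of the replicates was the one seen for F2r at all 4 times. In control, 4 libraries had 1 read each and the others none, 4 reads against 7603 in cDKO and a CPM ratio of 2089 (816 to 7670).

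Gria2 encodes a subunit of AMPA receptors, the glutamate-gated channels of fast synaptic transmission. Most of its reads, 4919 in cDKO, fell at chr3:80684936-80688714 (minus strand), and 1081 fell at chr3:80691492-80692271, where 3.05% of reads were multimapping. The cDKO replicates stood at 73.3, 8.12 and 198 CPM at 0 min and at 68.5, 7.39 and 168 CPM at 60 min. They stood at 85.2, 13.6 and 221 CPM at 180 min and at 90.1, 6.48 and 230 CPM at 540 min. Replicate 2 held 37 to 67 reads per library, so its values are the least precise of the 4 genes. All 3 control reads of Gria2 were in 1 library, against 6000 reads in cDKO, for a CPM ratio of 2198 (752 to 10662).

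Susd5 encodes a little-studied membrane protein with a sushi domain, a fold found in complement regulators. Its interval is chr9:114096911-114098733 (plus strand). The cDKO replicates stood at 124, 184 and 222 CPM at 0 min, at 120, 164 and 208 CPM at 60 min, at 91.3, 157 and 182 CPM at 180 min, and at 98.6, 140 and 188 CPM at 540 min. Replicate 3 was again the highest, but here replicate 1 was the lowest. The control libraries held 2 reads in all, both in 1 library, against 9654 in cDKO, and the CPM ratio was 5305 (1468 to 43815).

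**Figure D1:**
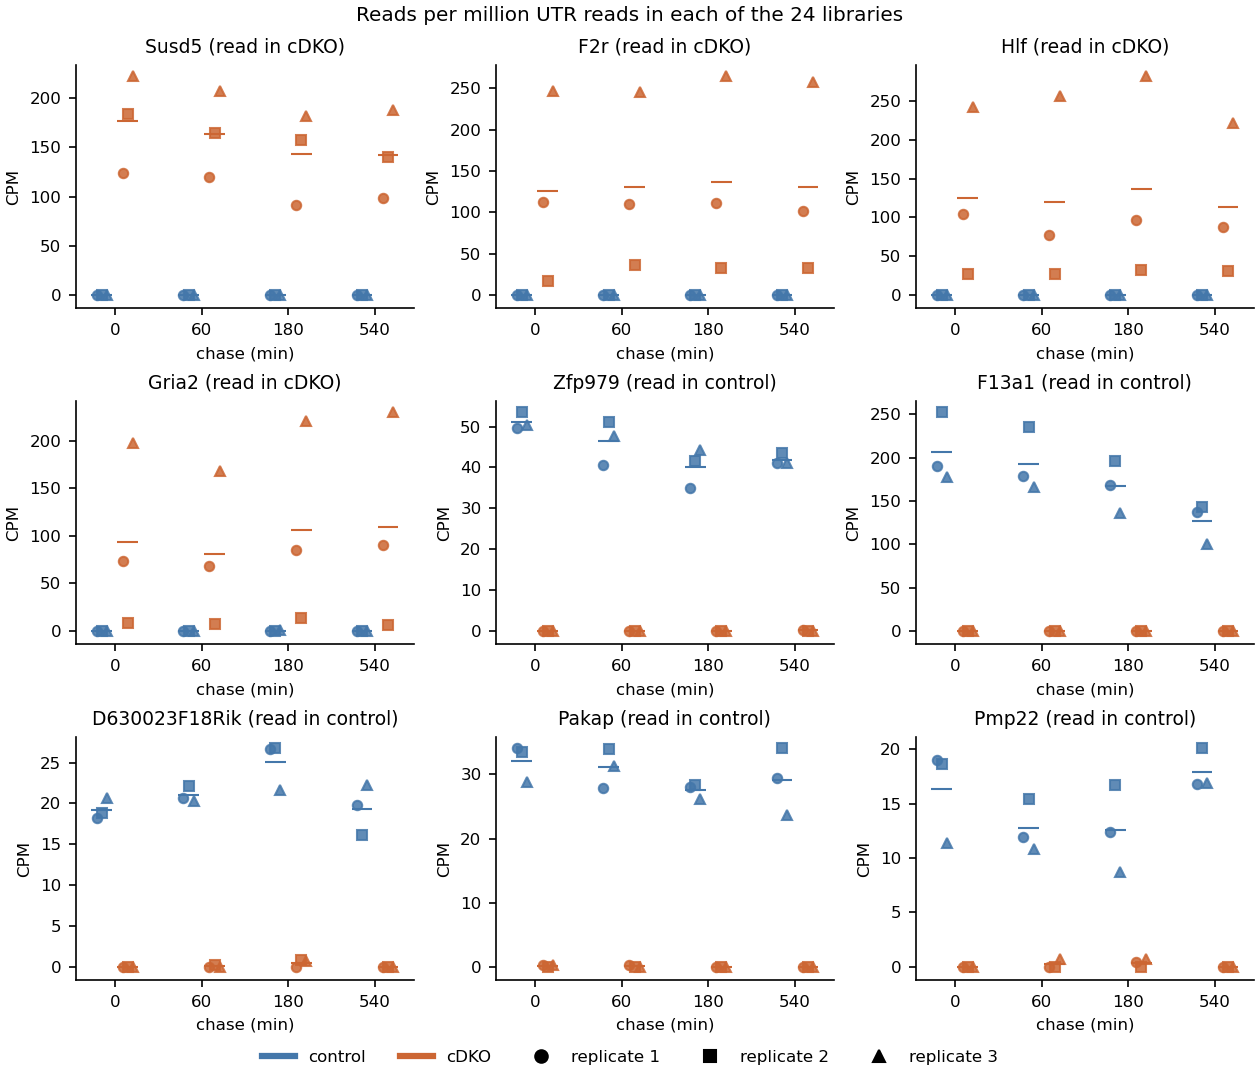
CPM (scaled to UTR reads) of the 9 genes by chase time in min, 1 panel per gene on a linear axis from 0. Blue marks are control and orange marks cDKO libraries, the mark's shape gives the replicate number, and short lines are means of 3 libraries. F2r, Hlf and Gria2 are at 17.5, 27.2 and 8.12 CPM in cDKO replicate 2 at 0 min and at 247, 242 and 198 CPM in replicate 3, while the genes read in control are spread less.

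Reads of F2r, Hlf and Gria2 were concentrated in a single replicate. Replicate 3 held 62.7 to 65.9% of the summed cDKO CPM of F2r, 64.7 to 71.0% of that of Hlf and 68.9 to 70.9% of that of Gria2 over the 4 times. The same share was 41.9 to 44.0% for Susd5. Of the 9830 genes with at least 30 reads in each cDKO group, 250 (2.54%) had 1 replicate number with at least 50% of the CPM at all 4 times, and 3 of the 4 genes read in cDKO were among them. In 188 of the 250, the replicate number was 3. The concentration was common among the other genes read almost only in cDKO (at least 100 reads, and at most 1% of that CPM in control). Of 85 such genes besides the 4, 69 had at least 30 reads in each cDKO group, and 45 of these (65.2%) had at least 50% of the CPM in 1 replicate number at all 4 times, 36 of them in replicate 3. Of the 12 other genes read almost only in control by the same limits, 7 had at least 30 reads in each control group, and 0 of these were so concentrated. The median gene had 37.8% of its CPM in the highest replicate, and no control gene of 9746 passed 50% at all 4 times.

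The ratio of the highest to the lowest replicate mean lay at percentiles 98.88 (F2r), 98.87 (Hlf) and 99.5 (Gria2) of the genes in the cDKO libraries. Averaged over the 4 times, Gria2 stood at 79.3, 8.90 and 204 CPM in replicates 1, 2 and 3, a 23.0-fold range. The range was 8.55-fold for F2r and 8.53-fold for Hlf, 1.84-fold for Susd5 and 1.19-fold for the median gene of the cDKO libraries. The replicate order 3, 1, 2 held at all 4 times for 485 of the 9830 genes (4.93%), the order 2, 1, 3 for 261, and any fixed order for 888 (9.03%). In the control libraries a fixed order held for 60 of 9746 genes (0.616%), with F13a1 among them in the order 2, 1, 3.

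In replicate 3 the 3 genes stayed high at every chase time. F2r ranged there from 246 to 265 CPM, Hlf from 222 to 282 CPM and Gria2 from 168 to 230 CPM. The genes were also read outside replicate 3. Replicate 2, the lowest, still held 626 reads of F2r, 625 of Hlf and 187 of Gria2 over its 4 libraries, against 2, 4 and 3 in all 12 control libraries.

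**Figure D2:**
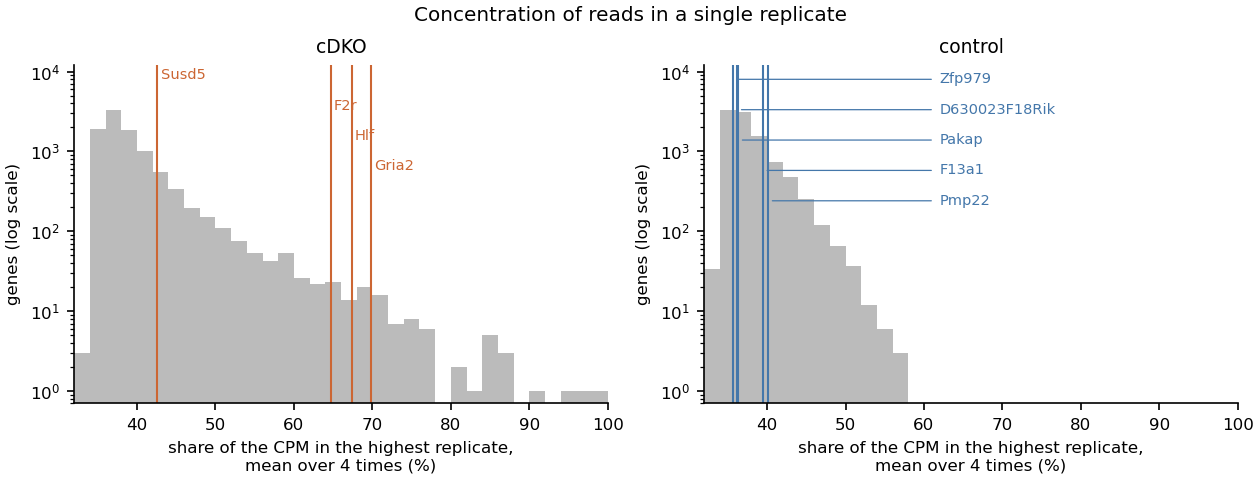
Number of genes (log axis) by the share of a group's CPM in its highest replicate, averaged over the 4 chase times, for cDKO (left) and control (right). Vertical lines mark the 9 genes: F2r, Hlf and Gria2 lie at 64.7, 67.3 and 69.8% in the thin right tail of the cDKO genes, and Susd5 at 42.6%.

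By the rule of likeness, the Pearson correlation of log2(CPM + 1) over the 12 libraries of the genotype, F2r, Hlf and Gria2 resembled each other. The correlation was 0.98 between F2r and Hlf and 0.97 between Gria2 and either, over libraries that repeat the same 3 replicate numbers at each chase time. The genes most like F2r were App, the amyloid precursor protein gene (0.99), Angptl2 (0.99) and Ccdc180 (0.99). The genes most like Hlf were S100a10, a calcium-binding protein gene (0.99), Nrgn (0.99) and Ccdc180 (0.99). For Gria2 they were P2rx3, an ATP-gated channel gene (0.99), Wdr83os (0.99) and Gsn, the actin-severing gelsolin (0.99).

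Each of these neighbours in pattern had the same replicate order, which their choice by correlation over these same libraries made likely beforehand. Gsn averaged 251, 87.0 and 528 CPM in cDKO replicates 1, 2 and 3, and S100a10 averaged 95.9, 36.1 and 215 CPM. Susd5 kept apart, with correlations of 0.18, 0.28 and 0.11 to F2r, Hlf and Gria2, and its nearest genes were Kctd17 (0.90), Emilin2 (0.89) and Phtf2 (0.88).

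F13a1 had the most reads of the genes read in control. It encodes the A subunit of coagulation factor XIII, the transglutaminase that cross-links fibrin, and is known in platelets, monocytes and macrophages. Its interval is chr13:36867178-36868764 (minus strand). Control replicates 1, 2 and 3 stood at 191, 253 and 178 CPM at 0 min, at 179, 235 and 166 CPM at 60 min, at 169, 196 and 137 CPM at 180 min, and at 137, 143 and 100.4 CPM at 540 min. Replicate 2 was the highest and replicate 3 the lowest at each time, within a 1.42-fold range of their averages. The cDKO libraries held 9 reads of F13a1, spread over 6 libraries, against 11566 in control, a CPM ratio of 1169 (616 to 2558).

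Zfp979 encodes a zinc finger protein and was read at chr4:147611936-147613026 (minus strand). Its 12 control libraries lay between 34.9 and 53.6 CPM, with means of 51.2 ± 2.09, 46.5 ± 5.29, 40.2 ± 4.82 and 41.9 ± 1.43 (SD, n = 3) at 0, 60, 180 and 540 min. The 2 cDKO reads were in 1 library, against 3039 in control (ratio 1382, 382 to 11421). Pakap joins the genes of a paralemmin and of an anchor for protein kinase A. It was read at chr4:57710188-57717146 and, with 1563 of its 2018 control reads, at chr4:57892892-57896984 (plus strand). Its control libraries lay between 23.7 and 34.1 CPM, and 3 cDKO libraries had 1 read each (ratio 612, 209 to 2970).

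D630023F18Rik is a RIKEN gene with no established role, and was read at chr1:65105285-65105728 (985 reads) and chr1:65107313-65108696 (437 reads, minus strand). Its control libraries lay between 16.1 and 26.8 CPM. Pmp22 encodes peripheral myelin protein 22, a membrane protein of compact myelin, and was read at chr11:63158416-63159547 (plus strand) at 8.68 to 20.1 CPM. Of the 9 genes, these 2 had the largest share of their CPM in the other genotype. D630023F18Rik had 9 cDKO reads and 0.695% of its control CPM there (ratio 144, 75.5 to 315), and Pmp22 had 10 reads and 1.07% (ratio 92.2, 49.9 to 193). The 5 genes read in control were not concentrated, with 34.3 to 44.1% of a group's CPM in the highest replicate.

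The genes read in control did not share one pattern over the 12 control libraries, with correlations between them of -0.56 (D630023F18Rik and Pakap) to 0.68 (F13a1 and Pakap). The gene most like F13a1 was Thbs1, the thrombospondin gene (0.94), followed by Tmem248 (0.89) and Mmp8 (0.86). Zfp979 was most like Ccnd2, a cyclin gene (0.90), Pms1 (0.87) and Pde2a (0.87). Pakap was most like Polr3e (0.87), Mmp12 (0.86) and Sufu (0.82). The nearest genes to D630023F18Rik were Brms1l (0.90), Hsd17b1 (0.89) and Rpl6 (0.86), and those to Pmp22 were Ier3 (0.88), Abhd18 (0.87) and Vcan (0.87).

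The few reads in the other genotype were not spread evenly over libraries. Control replicate 3 at 180 min held 8 of the 11 control reads of the 4 genes read in cDKO, and was the only control library with reads of Susd5, F2r and Gria2. That library also had reads for 23 of the 85 other genes read almost only in cDKO, against 7 to 16 in the other 11 control libraries. In cDKO, D630023F18Rik had 4 reads each in replicates 2 and 3 at 180 min, and Pmp22 had 4 reads each in replicate 3 at 60 and 180 min. The stray reads were too few to give a conversion rate.

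To place the 9 genes, the same description was applied to the whole table. With at least 100 reads in one genotype and at most 1% of that CPM in the other, 89 genes were read in cDKO and 16 in control. Susd5, F2r, Hlf and Gria2 ranked 5, 7, 8 and 10 among the 89 by CPM, which counts 3′ end reads and is not scaled to length, after genes such as Hbb-bt, a beta globin gene at 1630 CPM, and Akr1c18, a hydroxysteroid dehydrogenase gene at 554 CPM. F13a1, Zfp979, Pakap and D630023F18Rik were the first 4 of the 16 by CPM, while Pmp22 fell just outside. Without cDKO replicate 3, the number read in cDKO was 61, all 4 genes included. The 89 genes read in cDKO also held the sex-linked genes Ddx3y, Eif2s3y, Uty and Kdm5d.

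Whether the genes changed during the chase was tested within the genotype where each was read, with edgeR's quasi-likelihood test over all genes. Because the chase times are also the labelled batches, chase and batch cannot be told apart. F13a1 fell by 0.74 on the log2 scale between 0 and 540 min (SE 0.13, adjusted p = 0.000804), and the 3 values at 540 min all lay below the 3 at 0 min. It was 1 of the 5 genes read in control to pass, where 16.2% of the 10226 genes tested did so. Zfp979 stood lower by -0.33 (SE 0.12, edgeR adjusted p = 0.0617), with no overlap of the 2 groups, and did not pass. Pakap (-0.18), D630023F18Rik (-0.03) and Pmp22 (0.11) did not pass.

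None of the 4 genes read in cDKO passed, where 0.117% of the 10235 genes tested did so. The log2 changes were -0.35 for Susd5, 0.04 for F2r, -0.15 for Hlf and 0.21 for Gria2, with SE of 0.27, 0.89, 0.81 and 1.15. Same-numbered cDKO libraries deviated together, so the replicate number was also used as a block. The SE then fell to 0.10, 0.16, 0.12 and 0.14, the estimates were -0.36, 0.17, -0.11 and 0.13, and 128 genes passed in place of 12. With the block, none of the 4 passed either, at edgeR adjusted p of 0.132 for Susd5, 0.639 for F2r, 0.673 for Hlf and 0.676 for Gria2.

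The label at 0 min, the T-to-C rate of a gene relative to that of its library, was tested with edgeR against the library-wide rate. F2r passed below it and F13a1 and Pmp22 above it. Each genotype was set against its own libraries, and the difference between genotypes was not tested. F2r was labelled at 0.464, 0.536 and 0.478% in cDKO replicates 1, 2 and 3, below the rate of each library. Its log2 ratio was -0.48 (SE 0.16, edgeR adjusted p = 0.0258), and 5.84% of the 9220 cDKO genes passed below and 16.2% above the library-wide rate. Without replicate 1 the ratio was -0.30 and did not pass (edgeR adjusted p = 0.384).

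F13a1 was labelled at 1.85, 1.92 and 1.87% in control, above the rate of each library. Its log2 ratio was 0.20 (SE 0.06, edgeR adjusted p = 0.00866). Pmp22 was labelled at 2.26, 1.76 and 3.40%, from 75 to 99 reads per library, with a log2 ratio of 0.57 (SE 0.18, edgeR adjusted p = 0.0100). In control 25.9% of the 9815 genes passed above and 7.99% below, so 2 of 5 above is not far from the share of all genes. Against the median gene's rate in place of the library-wide rate, F13a1 (0.06, edgeR adjusted p = 0.509) and Pmp22 (0.43, edgeR adjusted p = 0.0708) no longer passed, and F2r still did (-0.58, edgeR adjusted p = 0.0109). With that reference 1210 genes were above and 1285 below in control, and 742 and 745 in cDKO. The other 6 genes did not pass against the library-wide rate, with log2 ratios from -0.27 for Gria2 to 0.31 for Pakap.

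Zfp979 had the shortest half-life of the 5 genes read in control. Its T-to-C rate fell from 2.43, 1.77 and 1.38% at 0 min to 0.586, 0.621 and 0.670% at 180 min and to 0, 0.0594 and 0.0924% at 540 min, with no overlap between these 3 times. Its loss was faster than that of the library as a whole by -0.31 (log2 per h, SE 0.05), with an edgeR adjusted p of 4.32e-05. The half-life from a single exponential was 124 min (105, 99.4 and 196 min in replicates 1, 2 and 3), against a median of 204 min over 7756 control genes. Its call also held against the median gene's rate (edgeR adjusted p = 0.0246) and without the 540 min libraries (edgeR adjusted p = 0.0035).

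F13a1 followed another course. Its rate stayed at 1.88 ± 0.0348, 1.73 ± 0.107 and 1.60 ± 0.230% (SD, n = 3) at 0, 60 and 180 min and was 0.198 ± 0.0442% at 540 min. The library-wide rate fell to 1.05 to 1.12% by 180 min, so that F13a1 stood at 1.37 to 1.67 times its library then and at 0.506 to 0.785 times at 540 min. Over all times the loss was called faster than the library-wide rate (-0.09 log2 per h, SE 0.03, edgeR adjusted p = 0.00739). Without the 540 min libraries it was called slower (0.13, edgeR adjusted p = 0.00209), and against the median gene's rate it was 0.06 and did not pass. A single half-life, 294 min here, was 741 min without the 540 min libraries.

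In cDKO, Hlf and Susd5 were called for losing label faster than the library as a whole. The Hlf rate fell from 0.641, 0.554 and 0.541% at 0 min to 0.0993, 0.175 and 0.269% at 180 min and to 0.0409, 0.0225 and 0.0576% at 540 min. Its loss differed from the library-wide rate by -0.18 (log2 per h, SE 0.05), with an edgeR adjusted p of 0.00211. Its half-life was 107 min (88.4, 68.9 and 184 min by replicate), against a median of 247 min over 4118 cDKO genes, in the lowest 12.0% of them. From pooled rates it was 145 min, and replicate 2 rested on 7, 7 and 1 conversions at 60, 180 and 540 min. Susd5 was labelled at 0.389, 1.03 and 1.13 times the rate of its library at 180 min, and then held only 6, 3 and 7 conversions in 9946, 14507 and 18756 covered T positions at 540 min. Its loss differed by -0.21 log2 per h (SE 0.05, edgeR adjusted p = 0.000243) over all times but by 0.01 without the 540 min libraries (edgeR adjusted p = 0.949), and its half-life was 252 min (159, 269 and 387 min). Without the 540 min libraries the Hlf difference was -0.29 and passed (edgeR adjusted p = 0.0183). Against the median gene's rate neither gene passed (edgeR adjusted p = 0.227 for Hlf and 0.0757 for Susd5).

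F2r and Gria2, which shared the replicate pattern of Hlf, were not called in the loss of label. F2r stood at 0.493 ± 0.0385% at 0 min, 0.258 ± 0.0231% at 180 min and 0.0924 ± 0.0432% at 540 min (SD, n = 3). Its difference from the library-wide rate was -0.05 log2 per h (SE 0.04, edgeR adjusted p = 0.262), with a half-life of 221 min (175, 237 and 255 min). Gria2 did not follow the order of the chase times. Its pooled rate was 0.543% at 0 min (exact 95% interval 0.459 to 0.639%) and 0.860% at 60 min (0.755 to 0.976%), then 0.318% at 180 min and 0.204% at 540 min. The higher rate at 60 min was seen in replicates 1 and 3, while replicate 2 rested on 4 and 5 conversions. The half-life was 850 min by replicate means but 448 min from pooled rates, and replicate 2 at 540 min had 0.752% from 6 conversions in 798 T positions. By replicate it was 457 and 429 min in replicates 1 and 3, while the value of replicate 2 lay at the upper limit of the fit, 10000 min. Without replicate 1, 2 or 3 it was 1602, 444 or 1506 min. The Gria2 slope was 0.04 log2 per h (SE 0.04, edgeR adjusted p = 0.469), and 0.14 against the median gene's rate (edgeR adjusted p = 0.00547), a call of slower loss.

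The remaining genes read in control were Pmp22, D630023F18Rik and Pakap. Pmp22 differed by -0.30 (log2 per h, SE 0.07, edgeR adjusted p = 0.00126), resting on 4 conversions in all at 540 min, and did not pass without those libraries (-0.02, edgeR adjusted p = 0.906). D630023F18Rik (-0.05, half-life 260 min) and Pakap (-0.06, half-life 166 min) did not pass. Faster loss was thus called for 3 of 5 genes in control and 2 of 4 in cDKO, where 56.5% of 9302 and 44.0% of 8469 genes were so called, and 10.4% and 11.0% were called slower. The median gene lost label faster than the library as a whole, by -0.15 log2 per h in control and -0.11 in cDKO, and with the median gene's rate as the reference 1539 genes were faster and 2549 slower in control, and 1141 faster and 2088 slower in cDKO. Susd5 and Pmp22 varied by an SD of over 0.3 of their mean at 0 min, the limit used for the medians, so their half-lives stand outside those distributions. Relative to the rate of its library, Susd5 stood at 0.834 ± 0.0891 at 0 min (SD, n = 3). Of genes with enough coverage, 4118 of 9573 were kept in cDKO and 7756 of 9613 in control. The cDKO median and percentiles thus rest on the smaller part of those genes.

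**Figure D3:**
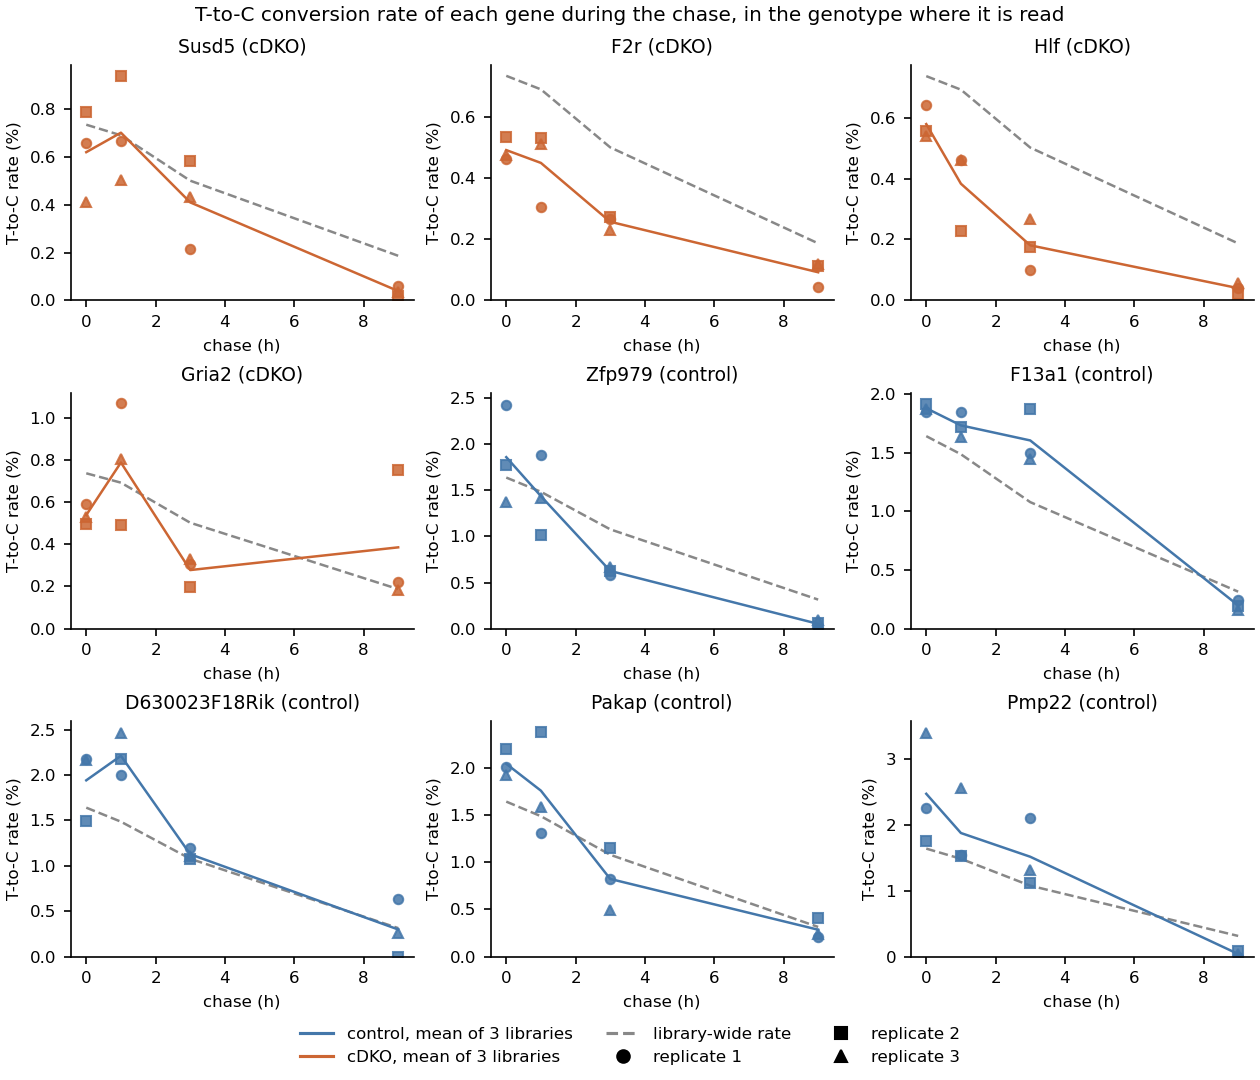
T-to-C conversion rate (%, linear axis from 0) against chase time in h for each gene in the genotype where it was read. Marks are libraries, shaped by replicate number, solid lines their means and dashed lines the mean library-wide rate. F13a1 stays above its library until 3 h and is below it at 9 h, and the mean of Gria2 is higher at 1 h than at 0 h.

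**Figure D4:**
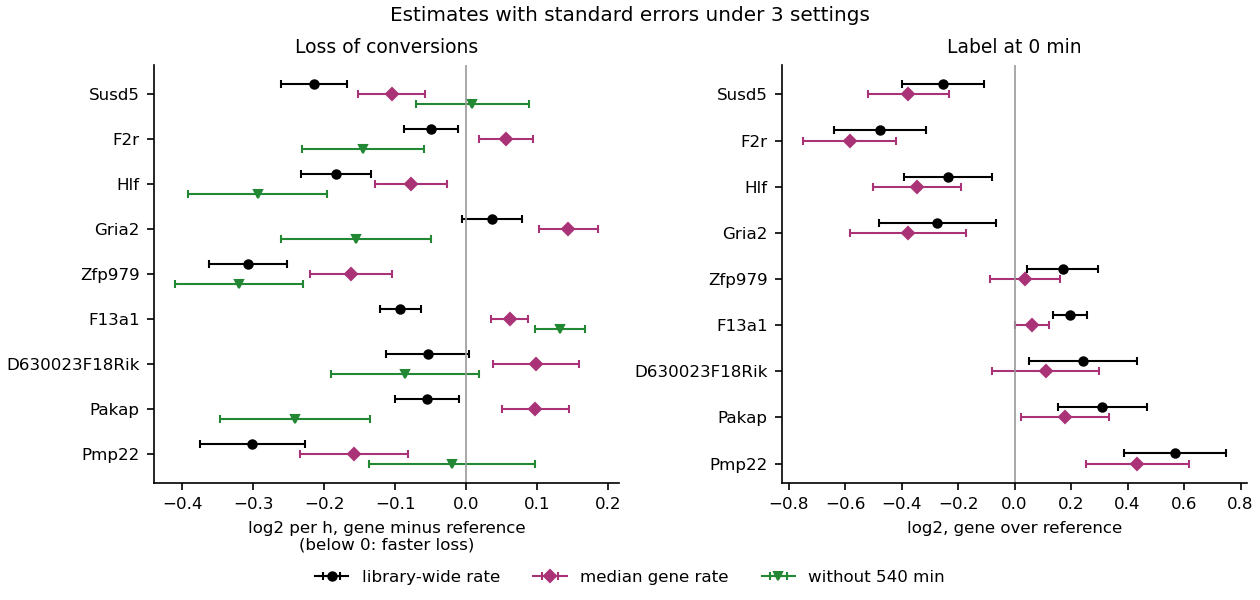
Loss of conversions in log2 per h (left, below 0 is faster) and label at 0 min in log2 (right), each as the gene's value relative to a reference, with bars of 1 SE from edgeR. Black uses the library-wide rate, purple the median gene's rate and green leaves out the 540 min libraries. Zfp979, Hlf and Pmp22 stay below 0 in the left panel under all 3, while F13a1 lies at -0.09, 0.06 and 0.13.

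Genes beside the 9 on the chromosome were then examined, since these were not used in the selection. Within 1 Mb of a member's interval, 80 other genes were tested between genotypes at 0 min, and 9 of them (11.25%) passed, against 13.4% of all 10186 genes tested. None of the genes tested lay within 1 Mb of Gria2, and no neighbour passed beside Zfp979, F13a1, Pakap or Pmp22. Beside Susd5 4 of 14 passed and beside F2r 3 of 9, and these 7 were the only ones of the 80 to pass at all 4 times. Of all 9896 genes 3.92% were higher in cDKO throughout and 4.39% lower, so 7 of 80 is near the share of all genes.

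F2rl2, which encodes protease-activated receptor 3 and lies 99.4 kb from F2r, stood at 102 ± 53.2 CPM in cDKO against 28.7 ± 4.92 in control at 0 min (SD, n = 3). Its log2 difference was 1.84 (SE 0.33, edgeR adjusted p = 0.00671). Over the 4 times it averaged 84.5, 70.3 and 148 CPM in cDKO replicates 1, 2 and 3, with replicate 3 highest and replicate 2 lowest as for F2r. Crhbp, which encodes a binding protein of corticotropin-releasing hormone, lies 171 kb from F2r and had 159 reads in cDKO and 0 in control at 0 min, at least 61.4-fold higher against a floor of 3 counts over the control group. Iqgap2, a scaffold gene 24.8 kb from F2r, went the other way, 215 ± 5.46 CPM in control against 46.9 ± 11.3 in cDKO (log2 -2.17, SE 0.17, edgeR adjusted p = 0.000122).

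Beside Susd5, the neighbours that passed also lay in both directions. Fbxl2, an F-box gene 120 kb away, rose from 5.15 ± 0.675 to 18.9 ± 2.75 CPM (log2 1.88, SE 0.24, edgeR adjusted p = 0.00141). Glb1, the lysosomal beta-galactosidase gene at 376 kb, rose by 0.82 (SE 0.18, edgeR adjusted p = 0.016), and did not pass without control replicate 1 or 2 (edgeR adjusted p = 0.0835 and 0.0821). Cmtm8 at 692 kb fell from 15.3 ± 0.221 to 1.51 ± 0.593 CPM. Rps27rt at 885 kb, a copy of the ribosomal protein gene Rps27 with which it may share reads, fell by 0.89 on the log2 scale. F2r and F13a1 share chromosome 13 with Tut7, at 35.8 and 22.9 Mb from it, and Zfp979 and Pakap share chromosome 4 with Tut4, at 39.1 and 50.8 Mb.

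**Figure D5:**
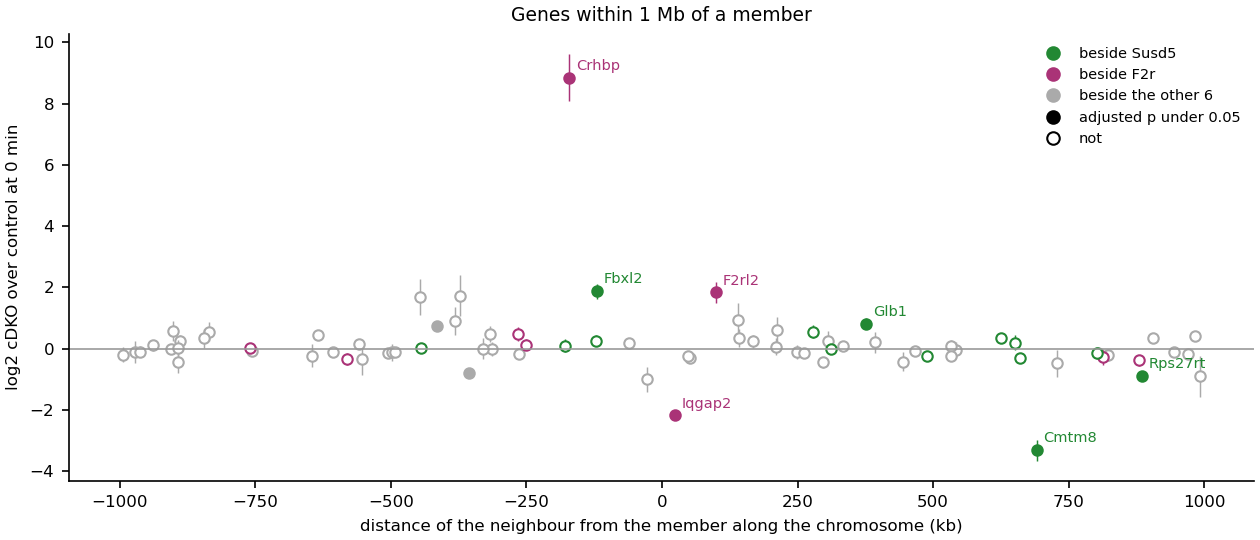
Log2 difference of cDKO over control at 0 min (bars of 1 SE) for the 80 genes within 1 Mb of one of the 9 genes, against distance in kb from it. Filled marks passed at an edgeR adjusted p under 0.05, and names mark genes that passed at all 4 times. Crhbp (fitted value, 0 reads in control), F2rl2 and Fbxl2 lie above 0, and Iqgap2, Cmtm8 and Rps27rt below.

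Relatives of the 9 genes, from families listed by name, mostly did not pass. At 0 min 6.72% of all genes were called higher in cDKO and 6.64% lower. Of 17 other genes of protease-activated receptors and coagulation 8 were tested, of which 3 were higher (F2rl2, Serpine2 and Thbd, the thrombomodulin gene) and 1 lower at 0 min. F2rl2 and Serpine2, a thrombin inhibitor gene (log2 3.29, SE 0.25, edgeR adjusted p = 0.00011), were higher at all 4 times. F10, the coagulation factor X gene, was lower at all 4 times (531 ± 24.1 CPM in control, 143 ± 71.2 in cDKO at 0 min). F2rl1, which encodes another receptor of the family, had 3 reads in all 24 libraries. Of 16 other ionotropic glutamate receptor genes in the table, 11 had no read in either genotype, among them Gria1 and Gria4. Gria3, the one other AMPA receptor gene with reads, stood at 260 ± 9.10 CPM in control and 103 ± 12.4 in cDKO (log2 -1.32, SE 0.11, edgeR adjusted p = 0.000171), opposite to Gria2, and its cDKO replicates averaged 105, 93.3 and 106 CPM.

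The relatives of Hlf, Dbp and Tef, and its antagonist Nfil3 were tested and did not pass at any time, with log2 differences of -0.16 to 0.21 at 0 min. None of the 3 sushi domain genes tested beside Susd5 passed, nor did Emp3, the 1 relative of Pmp22 tested. Of 9 paralemmin and kinase anchor genes tested beside Pakap, 1 passed at all 4 times, Palm, which was lower (-0.48, SE 0.12, edgeR adjusted p = 0.0298) but did not pass without any 1 of the 3 control libraries (edgeR adjusted p = 0.136, 0.0841 and 0.101) or with the replicate number as a block (edgeR adjusted p = 0.0516). None of the 5 zinc finger genes tested beside Zfp979 passed at 0 min.

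Markers of blood cell types also differed between the genotypes, and their part in the 9 genes was not tested. In bulk libraries, fewer cells of a type and less RNA per cell cannot be told apart. Of 18 stem and progenitor genes 8 were tested, and Gata2, Mllt3, Erg and Hoxa9 (whose retroviral copy may add reads) were higher and Prdm16 lower at all 4 times. Ly6a passed at 2 times and was lower at 0 min (log2 -2.47, SE 0.47, edgeR adjusted p = 0.0089). Kit, at 76.9 ± 7.93 CPM in control and 43.1 ± 16.5 in cDKO, did not pass at 0 min (edgeR adjusted p = 0.0516) but passed at 1 time. Meis1, the other transduced gene, was not tested, with 107 reads in cDKO and 0 in control. Mecom, Fgd5 and Tek, which define blood stem cells, had no read in either genotype. The list summed to 2653 to 2981 CPM in control and 4861 to 6884 in cDKO at 0 min, nearly all of it Hoxa9.

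Of 12 neutrophil genes 9 were tested, 7 lower at all 4 times, among them S100a8, Mmp8, S100a9 and Elane, and 1 higher, Cebpe. The list summed to 8160 to 8510 CPM in control and 1913 to 3141 in cDKO. Of 14 monocyte and macrophage genes 9 were tested, 5 lower at all 4 times, among them Mpeg1, Csf1r, Ctss and Lyz2, and 1 higher, Adgre1. The list summed to 5032 to 5459 CPM in control and 4322 to 4879 in cDKO at 0 min, most of it Ly6c2. Ly6c2 passed at no time, at 3944 ± 186 CPM in control and 3953 ± 624 in cDKO at 0 min (SD, n = 3, edgeR adjusted p = 0.943). Cd14 passed at no time either. Ccr2, at 1030 ± 77.0 and 389 ± 288 CPM, did not pass at 0 min (edgeR adjusted p = 0.0704) but passed at the 3 later times.

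Megakaryocyte and platelet genes showed 1 of 5 tested higher at all 4 times (Itga2b). The list summed to 180 to 201 CPM in control and 174 to 190 in cDKO at 0 min. Pf4 and Ppbp, which define platelets, were at 3.77 and 0.354 CPM in control and at 1.29 and 0.146 CPM in cDKO at 0 min. Gp9 was at 2.38 CPM in control and 0.304 in cDKO. Pf4 did not pass (edgeR adjusted p = 0.162), and Ppbp and Gp9 were not tested. Mast cell and basophil genes showed 3 of 5 tested higher (Cpa3, Hdc and Gata2), with sums of 21.7 to 28.0 CPM in control and 165 to 323 in cDKO, while Fcer1a, Tpsb2, Cma1, Mcpt4 and Tpsab1 had no read. Hdc, histidine decarboxylase, averaged 40.8, 14.7 and 81.2 CPM in cDKO replicates 1, 2 and 3, in the order of F2r, Hlf and Gria2. Cpa3 averaged 51.5, 59.0 and 75.9 CPM there and Gata2 76.4, 82.2 and 130 CPM, in the order of Susd5. Erythroid genes summed to 0.752 to 2.12 CPM in control and 1307 to 1986 in cDKO, nearly all of it Hbb-bt, with Epor, Alas2, Car1 and Slc4a1 at 0. Of the endothelial genes Pecam1 was higher at all 4 times, and Cdh5 had no read. Of 6 lymphoid genes none was tested, and the list summed to at most 0.529 CPM at 0 min.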

How the data were processed

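SLAM-seq libraries were made with a 3′ end kit (QuantSeq FWD) and 16 PCR cycles, with no molecular identifiers named in the sources used here, and each was tabulated with SlamDunk by the authors over 3′ UTR intervals of mm10 (GRCm38). Alignment, filter and variant masking settings are not given in the sources used here. The deposited counts are reads, T-to-C conversions and covered T positions per interval. The authors also deposited, as a fraction, the T-to-C rate that these counts give. Their deposited CPM was scaled to filtered reads and served as an alternative. Of 39419 lines per table, 99.17% matched a gene symbol, identical lines were used once, and of overlapping intervals of a gene the longest was kept, which left 29022 intervals of 20868 genes.

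The members and gene lists were chosen with earlier results of these data known. Reads were compared with edgeR 4.0.16 (R 4.3.3; TMM, filterByExpr, quasi-likelihood test, Benjamini-Hochberg adjustment over all genes tested, threshold 0.05), two-sided, between genotypes within a chase time and between 540 and 0 min within a genotype. Conversions were fitted likewise, with the log of covered T positions times the library-wide rate as the offset, for genes with at least 100 covered T positions in each library and at least 50 conversions (slope per h) or 10 (label at 0 min). Half-lives came from a single exponential fitted to rates divided by the mean rate at 0 min, within 1 to 10000 min, with no correction for growth of the culture. The medians over genes took those with an SD under 0.3 at 0 min, as the study did. The study's other limit, on the mean normalized rate at 0 min, was not applied, because division by that mean sets it to 1. Intervals are exact 95% intervals for counting error only. The fits were tested on simulated data, drawn as independent libraries with a single fixed spread for all genes. The simulation did not copy the joint deviation of same-numbered cDKO libraries, so it does not cover that feature.

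Named genes were the 9 members, Tut4 and Tut7, the 3 genes most like each member among genes with at least 100 reads, neighbours within 1 Mb called at all 4 times, and up to 4 genes of each list called at all 4 times, by size of change. Other genes (such as sex-linked genes, markers and relatives without reads or calls, Hdc, Pf4 and Ppbp, and the first genes by CPM) were named after their values were seen. Same-numbered cDKO libraries at 540 and 0 min deviated together from their group means (r = 0.16, 0.41 and 0.56 over 8970 genes), so the numbers pair these libraries, from the data and not from the labels. Control libraries (-0.04 to 0.07) and libraries of different genotypes did not pair. DESeq2 1.42.0, other filters, the replicate block, other reference rates, other time sets and single left-out libraries were run as alternatives.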

Additional observations from a re-analysis of the deposited data

How the results depend on the processing

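Of 108 alternatives for counts of genes, 73 stayed within 1.5 times and 35 did not. Leaving out libraries moved the genes called between genotypes from 1360 to between 633 and 2223 at 0 min (633, 689 and 700 without a control replicate, 2223 without cDKO replicate 2), to 1296 to 2331 at 60 min, 1155 to 2161 at 180 min and 1182 to 2070 at 540 min. It gave 580 to 1198 genes for 540 against 0 min in control and 0 to 2 in cDKO, 1284 to 1808 for label in cDKO and 2299 to 2670 in control, and 5227 to 5309 and 3427 to 4077 for loss in control and cDKO. Called neighbours ran from 6 to 14 (14 without cDKO replicate 2), and were 20 within 2 Mb. Genes read almost only in cDKO ran from 61 (without cDKO replicate 3) to 87, and those read almost only in control from 15 to 25 (25 without cDKO replicate 1). For 540 against 0 min in cDKO, DESeq2 called 123 genes and the replicate block 128, in place of 12. The block changed the call of no member in the chase, and moved no other count by over 1.5 times. For loss, the median gene's rate as reference gave 4088 calls in control, and leaving out the 540 min libraries gave 4132 in control and 2426 in cDKO. Limits for genes read almost only in one genotype, chosen after seeing the data, gave 57 and 10 genes at 0.1%, 163 and 55 at 5%, 47 and 8 at 500 reads, and 32 and 4 at 1000 reads (cDKO and control).

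Fitted values of members kept their direction except 11. Without the 540 min libraries loss was 0.0087 log2 per h for Susd5, -0.16 for Gria2 and 0.13 for F13a1, and against the median gene's rate it was 0.057 for F2r, 0.061 for F13a1, 0.098 for D630023F18Rik and 0.097 for Pakap. Leaving out each replicate number, the 540 min change ran from -0.018 (without replicate 2) to 0.12 for F2r, from -0.083 to 0.068 (without replicate 2) for D630023F18Rik and from -0.056 (without replicate 3) to 0.30 for Pmp22. The label of Zfp979 ran from -0.073 (without replicate 1) to 0.35. The cause of these changes was not tested. In 10 other alternatives a fitted value kept its direction but lost its call, and in 1 it gained a call. Mean CPM stayed within 1 SD of the group's libraries in 44 alternatives and did not in 28. These alternatives include the deposited CPM, scaled to filtered reads, of which the UTR reads made up 44.2 to 51.0%. That CPM is therefore lower by its scale alone. Half-lives stayed within 1 SD of the replicates in 55 and did not in 8. The label calls of F13a1 (edgeR adjusted p = 0.057 without replicate 2 and 0.0586 without replicate 3) and Pmp22 (0.368 without replicate 3) were lost. Depth limits Gria2 in cDKO replicate 2, with 37 to 67 reads per library, and Pmp22, with 48 to 135.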
